A study of Mus musculus with 4 samples.

Results

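The 9 genes described here, Dbp, Tef, Hlf, Nr1d1, Nr1d2, Per1, Per2, Per3 and Arntl, belong to the circadian clock and its first layer of output, and they were followed across cell classes of the mouse kidney. They are 9 of the 16706 genes in the deposited matrix. They were chosen by a measured value, the low level of Dbp in the library from givinostat-treated mice, so the values of givinostat beside vehicle describe that choice and support nothing. Arntl is an activator of the clock rather than an output of it, and it is kept in the list for its opposite phase. All mice were male C57Bl/6 animals of 9 weeks with the genotype Pax2.rtTA;TetO.Cre;R26.Confetti, in which the Pax2 promoter drives an inducible Cre recombinase that switches on the multicolour Confetti reporter. An anti-GBM serum, raised to the basement membrane of the glomerulus and used to model immune glomerular injury, was given to every animal, and all were killed on day 7. Treatment began on day 1 with distilled water (vehicle), 15 mg/kg panobinostat, 10 mg/kg givinostat or 60 mg/kg ruxolitinib. Panobinostat and givinostat inhibit histone deacetylases, and ruxolitinib inhibits the Janus kinases JAK1 and JAK2. Every library therefore comes from nephritic kidney, and no healthy kidney was measured.

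The labels name 2 animals and 1 library for each group, without saying whether a library pools both animals, and they give no clock time for the dose or the killing. The level of every gene described here is known to depend on the time of day. Hour of sampling and drug therefore cannot be told apart in any ratio below. With 1 library for each group there is no replicate, no test and no p-value. Intervals are 95% intervals for counting error alone, and each difference described is one between libraries. All 3 drug ratios share the vehicle library, so they are not independent of each other.

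In the mammalian clock, the proteins CLOCK and ARNTL (also called BMAL1) bind E-box sequences and activate the Per and Cry genes, whose proteins then repress CLOCK and ARNTL. The same E-boxes drive Nr1d1 and Nr1d2, whose products REV-ERBα and REV-ERBβ are nuclear receptors that repress Arntl through ROR response elements, so Arntl peaks when its targets are low. Dbp, Tef and Hlf encode the PAR bZIP transcription factors, which carry the rhythm to output genes by binding D-box sequences. The kidney tubule has its own clock, which is known to time the transport of sodium and water.

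Each library held between 3472 and 4396 cells after filtering, 15777 in all, with median UMI counts (unique molecular identifiers, 1 for each captured RNA molecule) between 6568.5 and 10020.5 a cell. Median mitochondrial shares were 11.4% in vehicle, 12.6% in panobinostat, 6.33% in givinostat and 9.34% in ruxolitinib. Between 2 and 4 cell barcodes were shared by any pair of libraries. Cells were clustered without the clock genes, and clusters were named for the marker genes that led them. Of 30 clusters, 4 stayed unnamed. Proximal tubule-like cells, 7286 in 7 clusters, were the largest class, with 1800 cells in vehicle, 2527 in panobinostat, 1199 in givinostat and 1760 in ruxolitinib. Their level of Slc34a1, the phosphate carrier of the proximal tubule, lay between 4003 and 4756 CPM in the 4 libraries. A level here is always the UMIs of a gene summed over a class in 1 library and scaled to CPM, counts for each 1e+06 UMIs of that class in the library. Fewer RNA molecules in each cell and fewer cells with the RNA cannot be told apart in such a sum. The reads come from the 3' ends of transcripts, so levels are compared between libraries and classes, not between genes.

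To show the clock elements near these genes, RefSeq start sites on GRCm38.p6 were searched in windows from 250 bases before to 50 after the start. Windows were at hand for 8 of the 9 genes (11 windows). Searched on both strands were the E-box CACGTG, which 7.15% of all 32851 windows hold, the D-box TTATGTAA (0.938%), the cyclic AMP response element TGACGTCA (1.79%) and the ROR response element, the site of ROR and REV-ERB receptors that ends in GGTCA (0.606%). No match of one motif overlapped a match of another in the windows shown. A match is a description of the sequence, and no match says only that these letters are not in this window. The upstream part of each window below is shown 5′ to 3′ on the strand of the gene, in lower case with the motif in capitals. Dbp is shown since its level chose the list, and it held none of the 4 motifs (chr7:45704997-45705087, plus strand). Tef and Per1 are shown for an E-box at 138 and 166 bases before their starts (chr15:81811164-81811413 and chr11:69098699-69098947, plus strand). Per3 carried a pair of D-boxes, at 205 and 158 bases before its start (chr4:151044666-151044915, minus strand). Ciart, a clock repressor outside the list that had the lowest ratio of the wider clock genes in panobinostat and in givinostat, carried 3 E-boxes, at 116, 58 and 44 bases before its start (chr3:95882252-95882478, minus strand).
Dbp: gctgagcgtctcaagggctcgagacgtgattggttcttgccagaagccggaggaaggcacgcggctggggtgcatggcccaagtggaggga
Tef: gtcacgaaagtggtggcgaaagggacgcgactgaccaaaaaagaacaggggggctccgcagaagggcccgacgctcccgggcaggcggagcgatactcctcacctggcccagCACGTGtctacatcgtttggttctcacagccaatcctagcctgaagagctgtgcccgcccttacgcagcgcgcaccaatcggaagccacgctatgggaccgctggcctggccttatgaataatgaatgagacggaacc
Per1: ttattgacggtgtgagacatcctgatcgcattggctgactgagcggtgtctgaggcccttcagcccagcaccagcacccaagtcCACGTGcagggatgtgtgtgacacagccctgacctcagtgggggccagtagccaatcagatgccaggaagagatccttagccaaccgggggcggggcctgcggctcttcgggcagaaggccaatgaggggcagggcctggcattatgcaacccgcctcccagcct
Per3: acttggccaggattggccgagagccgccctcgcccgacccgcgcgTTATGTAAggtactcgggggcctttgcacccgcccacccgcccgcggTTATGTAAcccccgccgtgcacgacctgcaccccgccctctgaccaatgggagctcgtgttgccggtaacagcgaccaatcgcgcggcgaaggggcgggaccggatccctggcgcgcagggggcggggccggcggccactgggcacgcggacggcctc
Ciart: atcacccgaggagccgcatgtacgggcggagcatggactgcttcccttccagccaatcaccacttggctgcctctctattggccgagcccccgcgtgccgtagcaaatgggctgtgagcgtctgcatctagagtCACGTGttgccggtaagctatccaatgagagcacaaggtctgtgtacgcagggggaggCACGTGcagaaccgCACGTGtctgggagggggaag
One Arntl window (chr7:113207261-113207560) held the ROR response element AAGTAGGTCA, 27 bases after its start. The other Arntl window (chr7:113207215-113207514) held none of the 4 motifs, nor did a further Per1 window (chr11:69099902-69100201). The Hlf window held a cyclic AMP response element 9 bases before the start. The windows of Nr1d1 and Nr1d2 held none of the 4 motifs.

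**Figure D1:**
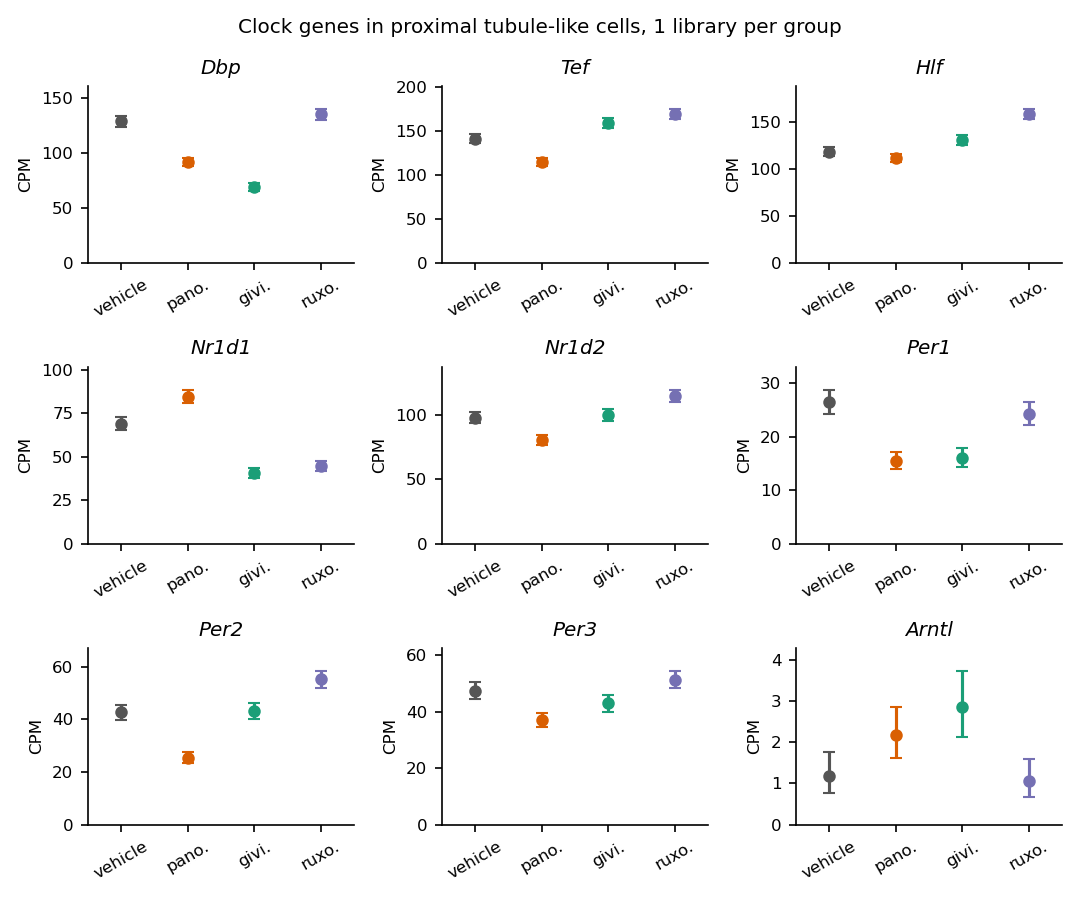
Levels of the 9 clock genes in proximal tubule-like cells (CPM, linear axes from 0, 1 panel for each gene). Points are the 4 libraries and bars are exact Poisson 95% intervals for counting error. Dbp is lowest in givinostat at 68.5 CPM, Per2 is lowest in panobinostat at 25.3 CPM, and Nr1d1 is at 84.5 CPM in panobinostat against 40.7 CPM in givinostat.

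In proximal tubule-like cells the clock genes did not move as a block, and each drug library had its own pattern. Givinostat had low Dbp, Nr1d1 and Per1 with Tef, Hlf, Nr1d2 and Per2 near or above vehicle. Panobinostat had low Dbp, Per1, Per2, Per3, Tef and Nr1d2 with high Nr1d1. Ruxolitinib had low Nr1d1, with Tef, Hlf, Nr1d2 and Per2 above vehicle.

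Among the PAR bZIP factors, Dbp (D-box binding protein) reached 129 CPM in vehicle, 91.4 CPM in panobinostat, 68.5 CPM in givinostat and 135 CPM in ruxolitinib. Vehicle and ruxolitinib were high and close together, and both histone deacetylase inhibitor libraries lay below them with intervals that do not overlap. The ratio to vehicle was 0.711 (0.672 to 0.753) for panobinostat, 0.533 (0.498 to 0.570) for givinostat and 1.05 (0.994 to 1.104) for ruxolitinib. The 2 doses differ, 15 and 10 mg/kg, so these values stand side by side without a comparison of the compounds. Tef (thyrotroph embryonic factor) reached 141 CPM in vehicle, 114 CPM in panobinostat, 158 CPM in givinostat and 169 CPM in ruxolitinib. It was therefore lowest in panobinostat, at 0.813 (0.771 to 0.857) of vehicle, and above vehicle in the remaining libraries. Hlf (hepatic leukaemia factor) gave 119 CPM in vehicle, 111 CPM in panobinostat, 131 CPM in givinostat and 159 CPM in ruxolitinib, where it stood at 1.34 (1.27 to 1.41) times vehicle. The 3 related factors thus differed in order: in givinostat Dbp lay at 0.533 of vehicle while Tef lay at 1.13 (1.07 to 1.18) and Hlf at 1.103 (1.04 to 1.17).

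The REV-ERB receptor genes differed from each other. Nr1d1 (REV-ERBα) reached 68.9 CPM in vehicle, 84.5 CPM in panobinostat, 40.7 CPM in givinostat and 44.4 CPM in ruxolitinib. Vehicle and panobinostat were high and givinostat and ruxolitinib low, with a gap between 44.4 and 68.9 CPM. The ratio to vehicle was 1.23 (1.145 to 1.31), 0.591 (0.540 to 0.646) and 0.645 (0.594 to 0.700) in that order. Nr1d2 (REV-ERBβ) gave 98.0 CPM in vehicle, 80.6 CPM in panobinostat, 100.2 CPM in givinostat and 115 CPM in ruxolitinib, so panobinostat was its lowest library and not its highest. The UMIs of Nr1d1 for each UMI of Nr1d2, a quantity that no scaling of the library changes, were 0.703 in vehicle, 1.05 in panobinostat, 0.406 in givinostat and 0.386 in ruxolitinib.

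A fact of the libraries stands beside the Nr1d1 values. Some genes with near-identical copies split the libraries into the same pairs: over all cells Tpm3-rs7 stood at 4.1 and 4.0 CPM in vehicle and panobinostat and at 53.8 CPM in both givinostat and ruxolitinib. Gm10036 stood at 31.7 and 24.5 CPM in the first pair and at 6.3 and 6.4 CPM in the second. Haemoglobin RNA split them too, with Hbb-bs in proximal tubule-like cells at 45.7 and 71.0 CPM against 191 and 305 CPM. What sets these pairs apart, and its part in the Nr1d1 difference, was not tested. Nr1d1 (chr11:98767932-98775333, minus strand) shares 1075 bases with Thra, a thyroid hormone receptor gene on the opposite strand. Thra itself gave 22.9, 23.6, 21.6 and 20.3 CPM in vehicle, panobinostat, givinostat and ruxolitinib. How the counting treats reads from such an overlap is not given in the sources used here.

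Of the Period genes, whose proteins repress CLOCK and ARNTL, Per2 had the widest spread. Per2 gave 42.7 CPM in vehicle, 25.3 CPM in panobinostat, 43.3 CPM in givinostat and 55.2 CPM in ruxolitinib, so panobinostat lay apart at 0.592 (0.533 to 0.658) of vehicle. Per1, which also answers to glucocorticoids and acts as an immediate early gene, gave 26.4 CPM in vehicle, 15.5 CPM in panobinostat, 16 CPM in givinostat and 24.3 CPM in ruxolitinib. In proximal tubule-like cells it was low in both histone deacetylase inhibitor libraries, at 0.585 (0.511 to 0.669) and 0.605 (0.524 to 0.698) of vehicle. Not every other tubule class shared this, as given below. Per3 gave 47.4 CPM in vehicle, 36.9 CPM in panobinostat, 42.9 CPM in givinostat and 51.3 CPM in ruxolitinib, the narrowest spread of the 3. Its whole gene lies within Camta1 on the same strand, 41014 bases, so intronic reads of Camta1 could fall into it.

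Arntl was near the limit of what the libraries could show in the tubule. Proximal tubule-like cells held 25, 50, 53 and 23 Arntl UMIs in vehicle, panobinostat, givinostat and ruxolitinib, which is 1.19, 2.16, 2.85 and 1.06 CPM. The histone deacetylase inhibitor libraries were the higher ones, at 1.82 (1.11 to 3.07) and 2.40 (1.46 to 4.03) times vehicle, and ruxolitinib stood at 0.890 (0.483 to 1.63). For each Dbp UMI there were 0.00924 Arntl UMIs in vehicle, 0.0236 in panobinostat, 0.0415 in givinostat and 0.00784 in ruxolitinib. Npas2, a partner of ARNTL that can replace CLOCK, was counted on still fewer molecules, with 6, 22, 21 and 9 UMIs. Its higher libraries were also the histone deacetylase inhibitor ones, but its lowest was vehicle and not ruxolitinib.

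Counts are read against all genes with at least 10 CPM in either library, on log2 ratios with 5 CPM added to each level. On this scale 8 of the 9 genes passed the filter, Arntl being under it. More than 1.5-fold below vehicle were 2 of 8 in panobinostat (Per1 and Per2), against 0.956% of all genes. In givinostat they were 2 of 8 (Dbp and Nr1d1, the contrast that chose the list), against 0.699%. In ruxolitinib there were 0 of 8, against 0.516%. No clock gene of the list lay more than 1.5-fold above vehicle over all proximal tubule-like cells, where the shares of all genes were 0.284%, 0.521% and 0.995%. Without cluster 1, described below, Nr1d1 in panobinostat and Per2 in ruxolitinib did, but shares of all genes were not computed for those cells. Over all proximal tubule-like cells, Per1 in givinostat and Nr1d1 in ruxolitinib were just short of 1.5-fold below vehicle, both at a log2 ratio of -0.58. The median log2 ratio of the 8 genes was -0.31 in panobinostat, -0.06 in givinostat and 0.16 in ruxolitinib, beside 0.01, 0.06 and 0.09 over all genes. The whole interval lay below vehicle for 7 of 8 genes in panobinostat, against 17.8% of all genes, for 4 of 8 in givinostat (18.1%) and for Nr1d1 in ruxolitinib (14.4%). It lay above vehicle for Nr1d1 in panobinostat (22.3% of all genes), for Tef and Hlf in givinostat (33.6%) and for Tef, Hlf, Nr1d2 and Per2 in ruxolitinib (40.9%). Composition-adjusted totals (TMM) shifted the median of all genes by -0.10 in ruxolitinib and -0.08 in givinostat. Under them Nr1d2 and Per2 in givinostat and Dbp and Per3 in ruxolitinib turned from just above to just below vehicle.

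The wider clock was read from 21 further genes, of which 13 passed the filter in proximal tubule-like cells. In panobinostat all 13 lay below vehicle (46.6% of all genes did), 4 of them by more than 1.5-fold, and their median log2 ratio was -0.43. In givinostat 8 of 13 lay below vehicle, beside 37.1% of all genes, with Ciart alone past the fold and a median of -0.04. In ruxolitinib 8 of 13 lay below, beside 32.4% of all genes, with none past the fold and a median of -0.14. Ciart, a repressor of the CLOCK and ARNTL pair, gave 32.0 CPM in vehicle, 13.4 CPM in panobinostat, 14.3 CPM in givinostat and 26.0 CPM in ruxolitinib. Like Dbp it was low in both histone deacetylase inhibitor libraries, at 0.420 (0.366 to 0.481) and 0.446 (0.386 to 0.515) of vehicle. Usp2, a rhythmic ubiquitin protease, gave 198 CPM in vehicle, 118 CPM in panobinostat, 160 CPM in givinostat and 165 CPM in ruxolitinib. Bhlhe40 (DEC1), an E-box repressor, gave 189, 103, 132 and 161 CPM in the same order, and Wee1, a clock-controlled cell cycle kinase, gave 24.4, 14.5, 17.9 and 21.0 CPM. All of these were lowest in panobinostat. Nfil3 (E4BP4), which competes with the PAR bZIP factors for D-boxes, gave 29.8, 19.8, 20.5 and 23.2 CPM, below vehicle in each drug library. Clock itself gave 33.3, 32.5, 39.6 and 37.5 CPM, above vehicle in givinostat and ruxolitinib.

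Genes that are known targets of the PAR bZIP factors were read from a list of 15, of which 11 passed the filter. Their median log2 ratio was -0.31 in panobinostat, -0.35 in givinostat and -0.18 in ruxolitinib, beside 0.01, 0.06 and 0.09 over all genes, and 10, 8 and 7 of the 11 lay below vehicle (46.6%, 37.1% and 32.4% of all genes did). Past the 1.5-fold limit were Alas1, Cyp4a14 and Usp2 in panobinostat, Cyp4a14 and Cyp2a5 in givinostat, and Cyp4a10 and Cyp4a14 in ruxolitinib, against 0.956%, 0.699% and 0.516% of all genes. Cyp4a14, a fatty acid hydroxylase, gave 127 CPM in vehicle, 73.6 CPM in panobinostat, 32.1 CPM in givinostat and 57.8 CPM in ruxolitinib. Alas1, which starts haem synthesis, gave 186, 119, 129 and 225 CPM in that order. Ruxolitinib, with Dbp near vehicle, thus had low Cyp4a14 and high Alas1.

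Gene groups that share inputs with Per1 were read beside it. Of 10 glucocorticoid-response genes that passed the filter, 9 lay below vehicle in panobinostat, 8 in givinostat and 6 in ruxolitinib, beside 46.6%, 37.1% and 32.4% of all genes, with median log2 ratios of -0.47, -0.16 and -0.08. Past 1.5-fold below vehicle were Tsc22d3, Fkbp5, Sgk1 and Pdk4 in panobinostat, Sgk1 and Cdkn1a in givinostat, and Pdk4 in ruxolitinib. The shares of all genes past that limit were 0.956%, 0.699% and 0.516%. Fkbp5, a chaperone of the glucocorticoid receptor that this hormone induces, gave 33.9, 19.4, 31.0 and 30.1 CPM in vehicle, panobinostat, givinostat and ruxolitinib. Sgk1, a kinase that regulates sodium transport, gave 317, 123, 209 and 294 CPM in that order.

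Of 15 immediate early and dissociation genes, 13, 14 and 13 lay below vehicle in panobinostat, givinostat and ruxolitinib, beside the same shares of all genes, with median log2 ratios of -0.44, -0.27 and -0.27. Atf3, a stress-induced transcription factor, was past 1.5-fold below vehicle in all 3 drug libraries, at 296, 145, 173 and 176 CPM from vehicle to ruxolitinib. Zfp36, whose product destabilises messenger RNA, was past it in panobinostat and givinostat, Ier2 in panobinostat and ruxolitinib, Btg2 in panobinostat and Junb in ruxolitinib. Over all genes 0.956%, 0.699% and 0.516% lay past this fold below vehicle in panobinostat, givinostat and ruxolitinib. The list did not move one way. Hspa1a and Hspa1b, which encode heat shock chaperones, lay more than 1.5-fold above vehicle in ruxolitinib, at 88.9 against 47.0 CPM and 57.3 against 24.7 CPM, and Egr1 lay above vehicle in givinostat at 144 against 123 CPM. The part of these groups in the Per1 and Per2 values was not tested.

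A last list held kidney genes with a clock-driven rhythm, of which 7 passed the filter in panobinostat and givinostat and 8 in ruxolitinib. Below vehicle lay 6, 3 and 4 of them, beside 46.6%, 37.1% and 32.4% of all genes. Their median log2 ratios were -0.23, 0.04 and 0.04, beside 0.01, 0.06 and 0.09 over all genes. Past 1.5-fold below were Sgk1 and Alas1 in panobinostat and Sgk1 in givinostat, against 0.956% and 0.699% of all genes. Both genes were already named in the lists above, so they are not further cases. Slc9a3, the sodium-proton exchanger of the proximal tubule, gave 67.4, 63.5, 70.7 and 77.3 CPM in vehicle, panobinostat, givinostat and ruxolitinib, so its levels lay close together.

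**Figure D2:**
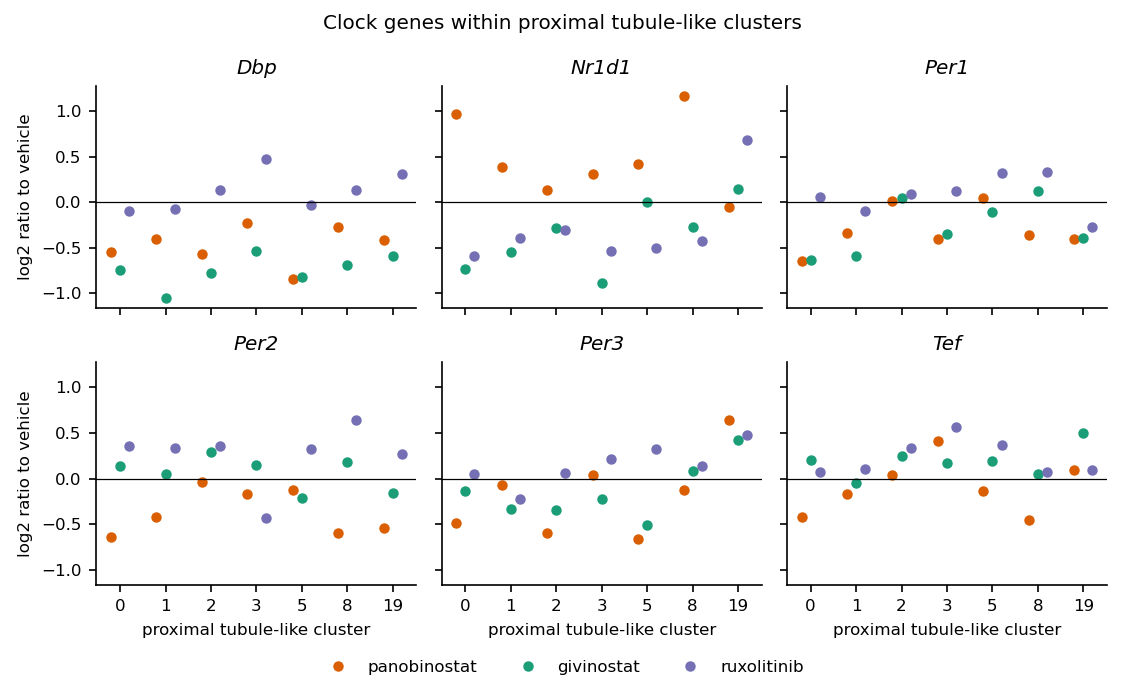
Log2 ratios to vehicle (5 CPM added) of 6 clock genes within each of the 7 proximal tubule-like clusters, 1 point for each drug library. Dbp points of panobinostat and givinostat lie below 0 in all 7 clusters, while Per1 and Per2 points in panobinostat spread from near 0 to about the -0.65 of cluster 0.

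Proximal tubule-like clusters differ in their clock gene levels, so each ratio was also taken within clusters. Dbp lay below vehicle in 7 of 7 clusters in panobinostat, with log2 ratios from -0.84 to -0.22, and in 7 of 7 in givinostat, from -1.05 to -0.54. In ruxolitinib it ran from -0.10 to 0.47. Nr1d1 was unevenly spread: vehicle held 132 CPM in cluster 1, which is led by Osgin1, Pdk4, Adamts1, Angptl4, Tmem252, Cyr61 and Cxcl1. It held 53.7 CPM in cluster 0, led by Slc5a12 and Slc5a2, the latter a glucose carrier of the early proximal tubule, but 10.7 CPM in cluster 2 and 11.7 CPM in cluster 3. In panobinostat Nr1d1 lay above vehicle in 6 of 7 clusters, up to 1.16 in cluster 8, and at -0.05 in cluster 19. Clusters 2, 3 and 5 held only 33, 19 and 25 Nr1d1 UMIs in vehicle and 46, 46 and 50 in panobinostat, with overlapping intervals. Ruxolitinib and givinostat lay above vehicle in cluster 19, at 57.0 and 37.8 against 33.7 CPM. Elsewhere both lay below vehicle, but for givinostat in cluster 5, at 14.8 against 14.7 CPM. Per1 and Per2 were likewise concentrated, with Per2 in vehicle at 55.0 CPM in cluster 0, 68.1 CPM in cluster 1 and 44.4 CPM in cluster 8, and at 14.0 CPM or less in the remaining clusters. Per2 lay below vehicle in 7 of 7 clusters in panobinostat, from -0.64 to -0.04. In clusters 2, 3 and 5 it was under 10 CPM in both libraries, and cluster 19 held 10 Per2 UMIs in vehicle and 5 in panobinostat. Such low counts show little of the direction. Cluster 1 held 475 of 1800 proximal tubule-like cells in vehicle, 414 of 2527 in panobinostat, 248 of 1199 in givinostat and 321 of 1760 in ruxolitinib. Without cluster 1, a step chosen after seeing the data, the number of genes more than 1.5-fold below vehicle was 0 in panobinostat and 1 in givinostat, in place of 2 and 2. More than 1.5-fold above vehicle were then Nr1d1 in panobinostat, at a log2 ratio of 0.76 in place of 0.28, and Per2 in ruxolitinib, at 0.61. The shares of all genes past these limits were not computed without cluster 1, so these counts have no background beside them.

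**Figure D3:**
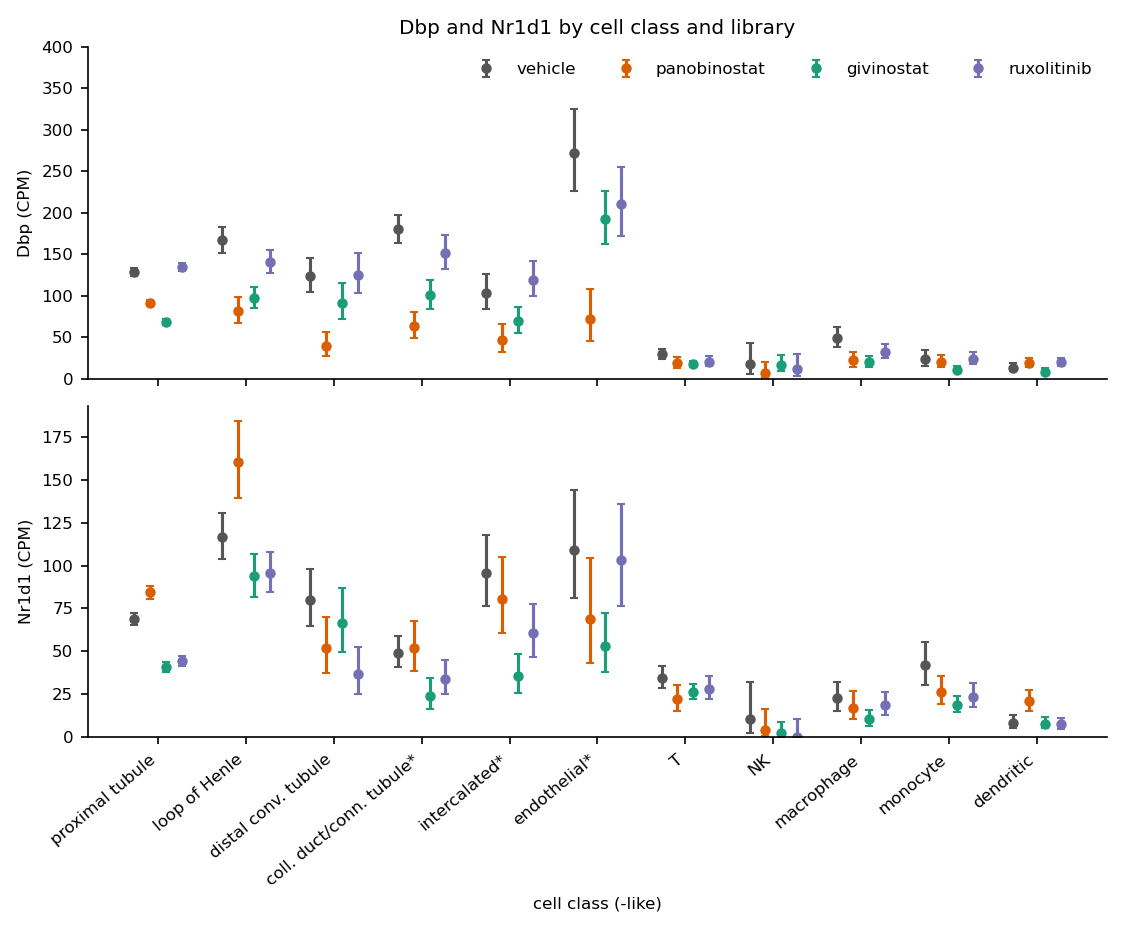
Dbp (upper panel) and Nr1d1 (lower panel) in 11 cell classes and 4 libraries, in CPM with exact Poisson 95% intervals for counting error. Classes with an asterisk have fewer than 50 cells in at least 1 library. Vehicle Dbp lies above panobinostat and givinostat in each tubule class and in endothelial-like cells, and panobinostat Nr1d1 stands above vehicle in the loop of Henle-like class at 160 CPM.

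The Dbp ratio of panobinostat was lower in the other tubule classes and in endothelial-like cells than in the proximal tubule. In loop of Henle-like cells, the salt-reabsorbing segment, Dbp gave 167 CPM in vehicle, 81.7 CPM in panobinostat, 97.0 CPM in givinostat and 141 CPM in ruxolitinib. In distal convoluted tubule-like cells, where thiazide-sensitive salt transport takes place, the order was 124, 39.6, 91.7 and 126 CPM, and panobinostat stood at 0.319 (0.211 to 0.470) of vehicle. Collecting duct principal or connecting tubule-like cells gave 180, 63.2, 100.5 and 152 CPM, and intercalated-like cells, which handle acid and base, gave 103, 46.9, 69.1 and 119 CPM. These last 2 classes and the endothelial-like class hold fewer than 50 cells in at least 1 library. In all 5 tubule classes the intervals of both histone deacetylase inhibitor ratios lay below vehicle. Panobinostat was the lowest library in 4 of them and givinostat in the proximal tubule. Endothelial-like cells gave the highest Dbp level of the 11 classes, 273 CPM in vehicle, with 72.2 CPM in panobinostat, 192 CPM in givinostat and 211 CPM in ruxolitinib. Proximal tubule RNA was also found in these classes. The median level of 4 proximal genes (Slc34a1, Gpx3, Kap and Miox), as a percent of their level in proximal tubule-like cells, was 22.6% in distal convoluted tubule-like cells of panobinostat and 16.1% in those of vehicle. Its part in these ratios was not tested.

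Across the 3 tubule classes with at least 50 cells in every library, 6 of 8 clock genes lay below vehicle in each class in panobinostat, where 12.8% of all genes did so. They were Dbp, Tef, Nr1d2, Per1, Per2 and Per3. In givinostat they were 3 of 8 (Dbp, Nr1d1 and Per3, against 14.3%) and in ruxolitinib Nr1d1 alone (12.3%). Per3 gave 51.1 CPM in vehicle, 25.9 CPM in panobinostat, 38.6 CPM in givinostat and 52.3 CPM in ruxolitinib in loop of Henle-like cells, so the panobinostat ratio was 0.507 (0.335 to 0.747). Over 5 tubule classes Per3 in panobinostat lay between 0.474 and 0.777 of vehicle, and Tef between 0.521 and 0.813. Per1 in panobinostat lay below vehicle in 3 of these 5 classes, with ratios from 0.585 to 1.30. In givinostat Per1 lay below vehicle in 1 of the 5, the proximal tubule, with ratios from 0.605 to 1.67 over all 5. No Per1 interval of these ratios lay above vehicle. Nr1d1 in loop of Henle-like cells followed the proximal order, with 117, 160, 93.7 and 95.8 CPM. The interval of Nr1d1 in panobinostat lay above vehicle in 2 of the 5 tubule classes, the proximal tubule-like and loop of Henle-like ones. Its high panobinostat level was not shared by distal convoluted tubule-like cells, where the ratio was 0.648 (0.440 to 0.940), or by intercalated-like cells at 0.844 (0.592 to 1.20). In collecting duct principal or connecting tubule-like cells the interval included a ratio of 1. The low Nr1d1 of givinostat and ruxolitinib was seen in all 5 tubule classes, with ratios from 0.375 to 0.831 and from 0.463 to 0.820.

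Arntl was measured on few molecules along the rest of the nephron, and panobinostat stood highest in collecting duct principal or connecting tubule-like cells and in intercalated-like cells. Collecting duct principal or connecting tubule-like cells held 2, 13, 6 and 1 Arntl UMIs in vehicle, panobinostat, givinostat and ruxolitinib, or 0.80, 12.5, 4.7 and 0.71 CPM. The panobinostat ratio was 15.5 with an interval from 3.52 to 142. Intercalated-like cells held 1, 8, 4 and 0 UMIs, the panobinostat ratio being 10.9 (1.47 to 485), and the count of 0 in ruxolitinib allows up to 2.84 CPM. In loop of Henle-like cells, with counts of 5, 2, 4 and 0, panobinostat was not highest. Nor was it in distal convoluted tubule-like cells, with 1, 1, 0 and 2. Outside the nephron, endothelial-like cells held 2, 6, 2 and 1 Arntl UMIs, with panobinostat again highest.

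**Figure D4:**
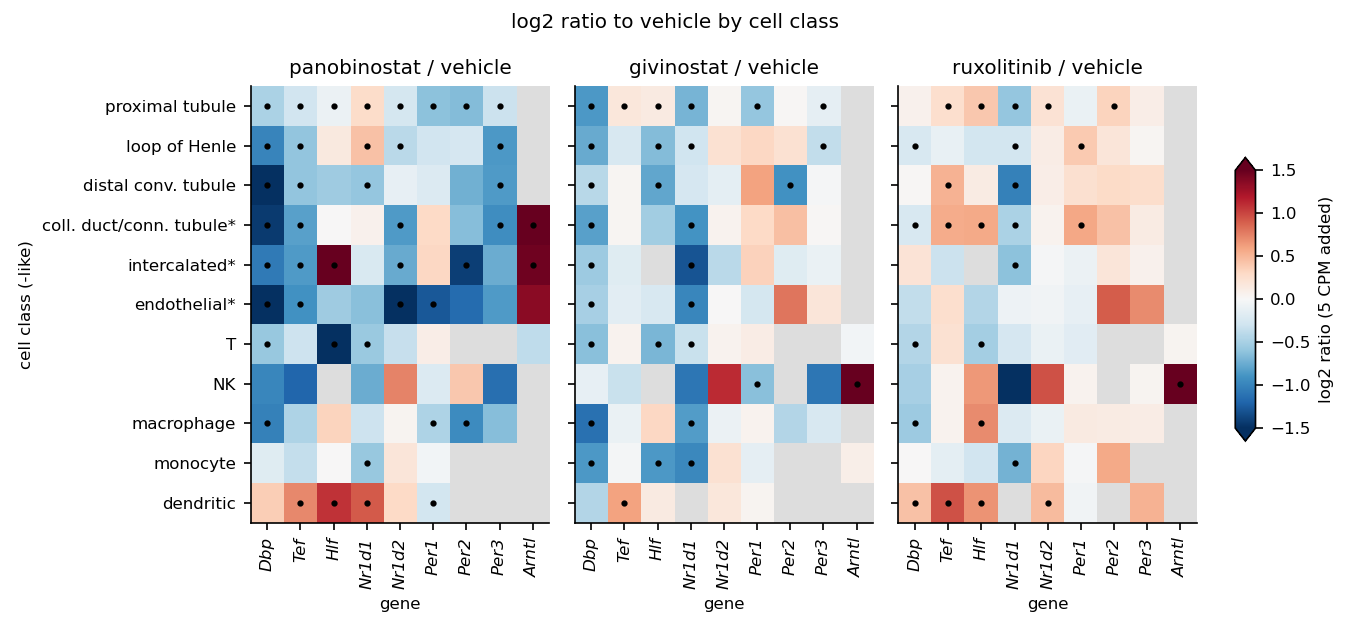
Log2 ratio to vehicle (5 CPM added) of each clock gene in 11 cell classes, 1 panel for each drug library. Blue is below vehicle, red above, grey is under 10 CPM in both libraries, and a dot marks a 95% counting interval that leaves out a ratio of 1. Classes with an asterisk have fewer than 50 cells in at least 1 library. The Dbp column is blue with dots in the 6 upper rows for panobinostat and givinostat, and Nr1d1 is blue in every measured class for givinostat and ruxolitinib.

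Across the 8 classes with at least 50 cells in every library, the highest median level over libraries stood in loop of Henle-like cells for Dbp (119 CPM) and Nr1d1 (106 CPM). It stood in proximal tubule-like cells for Tef (149 CPM), Hlf (125 CPM), Nr1d2 (99.1 CPM), Per2 (43.0 CPM) and Per3 (45.1 CPM). Proximal, loop of Henle-like and distal convoluted tubule-like cells overlapped in their library ranges for Dbp, Per2 and Per3. For Nr1d2 the loop of Henle-like range overlapped the other ranges. The proximal (80.6 to 115 CPM) and distal convoluted (62.8 to 75.4 CPM) ranges of Nr1d2 did not overlap each other. Only 2 genes had their highest medians in leukocytes. Per1 had medians of 146 CPM in NK-like, 141 CPM in monocyte-like and 133 CPM in T-like cells, whose ranges overlap for neighbouring classes, and between 18.4 and 36.2 CPM in the 3 tubule classes. Arntl had a median of 29.0 CPM in T-like and 12.7 CPM in NK-like cells, against 1.67 CPM in proximal tubule-like cells.

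**Figure D5:**
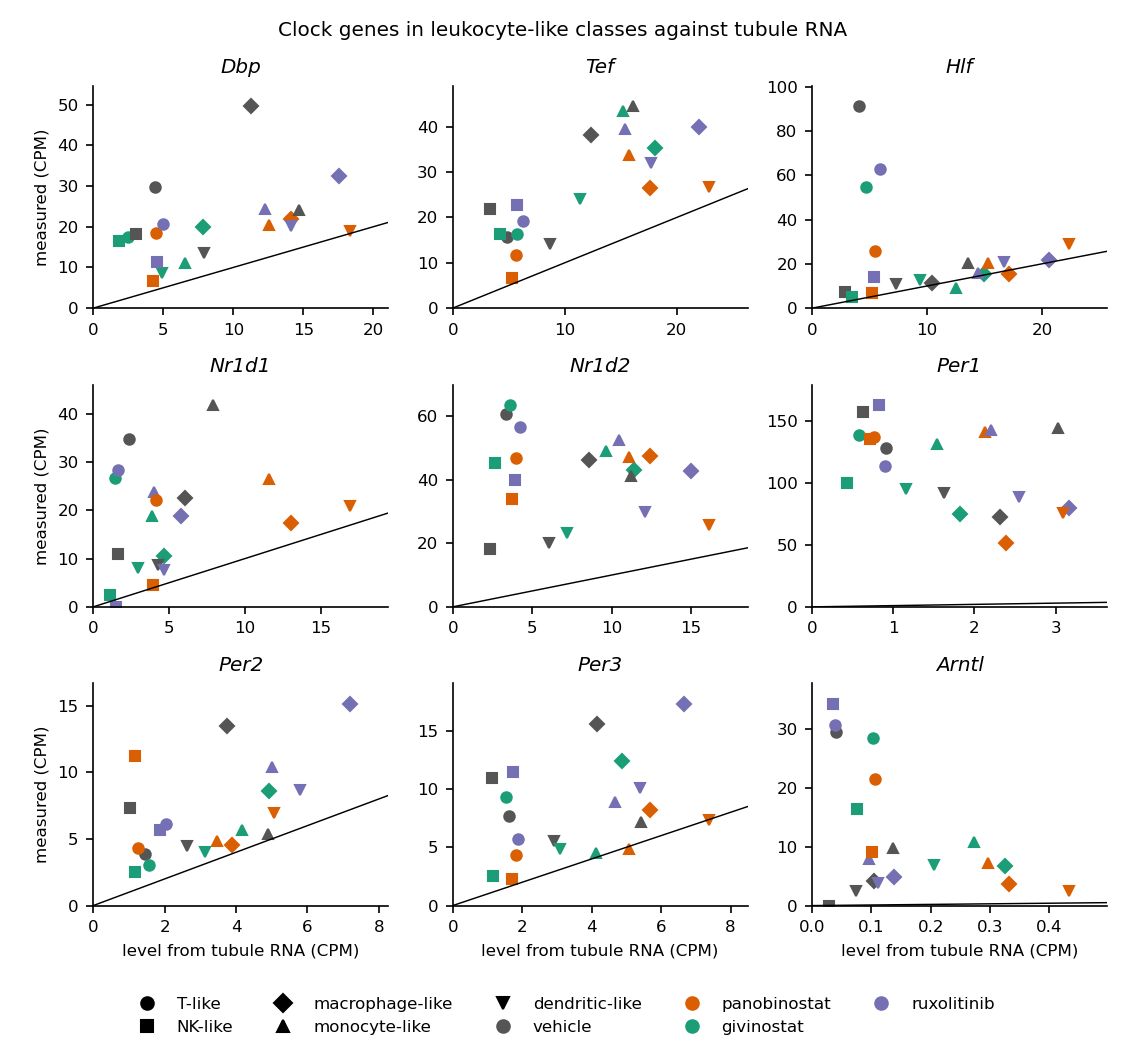
Level of each clock gene in 5 leukocyte-like classes (vertical axes, CPM) against the level that tubule RNA in those cells would give (horizontal axes, CPM), by class (shape) and library (colour). The line marks equal values. Per1 and Arntl lie far above it (but for Arntl in NK-like cells of vehicle, at 0), while Hlf of macrophage-like cells lies on it, between 0.90 and 1.09 times that level.

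Leukocyte levels were set beside the tubule RNA found in the same cells, since cell suspensions of kidney carry free tubule RNA. The same percent over the 4 proximal genes in dendritic-like cells was 6.16% in vehicle, 20.02% in panobinostat, 7.2% in givinostat and 10.5% in ruxolitinib. In macrophage-like cells it ran from 8.76% to 15.4%, in monocyte-like cells from 9.09% to 13.7%, and in T-like cells from 3.42% to 4.92%. Measured Dbp in dendritic-like cells was 1.03 to 1.75 times what that share of the proximal level would give, and Hlf 1.24 to 1.51 times. The part of tubule RNA in these levels was not tested. Per1, in contrast, was 24.3 to 82.3 times that level in dendritic-like and 126 to 241 times in T-like cells.

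Per1 and Arntl stood far above the level of the tubule RNA share in the leukocyte-like classes, except for Arntl in NK-like cells of vehicle, which counted 0 UMIs. Nr1d2 stood at 11.8 to 18.1 times it in T-like cells, but at 2.86 to 5.36 times in macrophage-like and 1.60 to 3.32 times in dendritic-like cells. In T-like cells Hlf stood at 4.71 to 22.4, Nr1d1 at 5.33 to 18.2 and Dbp at 4.10 to 7.10 times that level. Per1 gave 128, 137, 139 and 113 CPM in T-like and 144, 141, 131 and 142 CPM in monocyte-like cells for vehicle, panobinostat, givinostat and ruxolitinib. In other leukocytes it lay lower in some drug libraries. Macrophage-like cells gave 72.3, 51.2, 74.9 and 79.5 CPM, with panobinostat at 0.708 (0.502 to 0.991) of vehicle, and in dendritic-like cells panobinostat stood at 0.820 (0.676 to 0.993). NK-like cells gave 157, 135, 99.5 and 163 CPM, with givinostat at 0.635 (0.432 to 0.943) of vehicle. Differences between classes were not tested. Arntl in T-like cells gave 29.5, 21.5, 28.4 and 30.6 CPM, with all 3 intervals of the ratio including 1. Dbp in T-like cells gave 29.8, 18.4, 17.5 and 20.7 CPM, highest in vehicle. Dbp in macrophage-like cells gave 49.6, 21.9, 20.04 and 32.5 CPM, at 1.56 to 4.41 times the level of the tubule RNA share.

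Hlf in T-like cells came from particular clusters. T-like cells gave 91.2 CPM in vehicle, 25.8 CPM in panobinostat, 54.9 CPM in givinostat and 62.7 CPM in ruxolitinib. Cluster 4, led by Xcl1, Ccl5 and Cd8b1, held between 4.71 and 9.63 CPM in every library. Cluster 14, led by Il17a and the T cell receptor gene Trdc, held 160, 191, 140 and 161 CPM in vehicle, panobinostat, givinostat and ruxolitinib, with only 29 cells in panobinostat. Cluster 6, led by Ctla4 and Il17a, held 158, 26.3, 68.5 and 83.3 CPM. The interval in panobinostat was 13.1 to 47.1 CPM and in vehicle 137 to 180 CPM. Hlf was therefore closer between libraries in cluster 14 than in cluster 6. A finer clustering, set beside it after its values were seen, divided most of cluster 6 into a pair of clusters that the libraries held in different shares. The one led by Il17a and Icos held 142, 14, 65 and 49 cells in vehicle, panobinostat, givinostat and ruxolitinib, with Hlf at 281, 142, 207 and 205 CPM. The one led by Ctla4 and Tnfrsf4 held 122, 84, 229 and 92 cells, with Hlf at 28.4, 5.82, 28.9 and 26.3 CPM. Panobinostat counted 9 Hlf UMIs in the first and 2 in the second, with intervals from 64.7 to 269 and from 0.705 to 21.02 CPM. Cluster 6 was 52.4% cells of the first kind in vehicle and 13.9% in panobinostat, and levels within both kinds were lowest in panobinostat. Nr1d1 in cluster 6 was also highest in vehicle, at 49.2 CPM against 16.7 to 24.0 CPM. In cluster 14 Nr1d1 was instead lowest in vehicle, at 77.4, 149, 123 and 96.0 CPM from vehicle to ruxolitinib. Panobinostat counted 18 Nr1d1 UMIs there. Cluster 4 held 9, 11, 5 and 3 Nr1d1 UMIs in the same order.

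Ratios between 2 clock genes in the same cells do not depend on how a library is scaled. Nr1d1 UMIs for each Dbp UMI in proximal tubule-like cells were 0.536 in vehicle, 0.924 in panobinostat, 0.594 in givinostat and 0.330 in ruxolitinib. In loop of Henle-like cells the same ratio was 0.700, 1.96, 0.966 and 0.681, so panobinostat was highest in both classes. Per2 UMIs for each Dbp UMI in proximal tubule-like cells were 0.332, 0.277, 0.632 and 0.410, and Tef for each Dbp 1.09, 1.251, 2.31 and 1.26, highest in givinostat.

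Genes that resemble Dbp were sought over 32 points, 8 classes in 4 libraries, each gene centred within its class, and 3962 genes that reached 20 CPM in 0.75 or more of these points were ranked. The points of a library share its depth and handling, so the correlations are descriptions. The most alike were Ocel1 (r = 0.68), Ddx39b (0.66), Ppp1r14b (0.65), Rps23 (0.65) and Fam32a (0.61), and the most opposite Wdr45b (-0.74), Brd9 (-0.64), Capza1 (-0.64), Rab11b (-0.62) and Isca1 (-0.62). The listed clock genes were left out of that ranking, and the clock gene values that follow were taken without its 20 CPM limit. Per3 would not have met the limit, with at most 17.3 CPM in any leukocyte-like class. Among the listed clock genes Per3 reached 0.68 and Tef 0.58, with 6 more between -0.23 and 0.40. Of the wider clock Usp2 reached 0.59 and Ciart 0.54. Ocel1 gave 39.3 CPM in vehicle, 32.2 CPM in panobinostat, 23.1 CPM in givinostat and 28.4 CPM in ruxolitinib in proximal tubule-like cells.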

How the data were processed

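Total kidney cells were measured with 3' droplet libraries, and the deposited matrix holds UMI counts for each gene and cell, made with Cell Ranger 3.0.1 on mm10 per the submitters' processing notes. Library names stand in the cell barcodes. For the drugs they match the sample labels, and the remaining name, CTRL, was taken as vehicle by elimination. A cell needed 200 genes, 500 UMIs and a mitochondrial share under 50%, which 15777 of 16003 cells met. The lowest UMI count of a kept cell was 2920 and the highest mitochondrial share 39.98%, so kept cells lay well inside the UMI and mitochondrial limits. Which limit the removed cells failed was not recorded.

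Cells were clustered with scanpy 1.11.5 (2000 variable genes without clock genes, 30 components, 15 neighbours, Leiden resolution 1, Python 3.11.15), and clusters were named from marker lists. Scrublet marked 0.0254%, 0.0682%, 2.30% and 0.302% of cells in vehicle, panobinostat, givinostat and ruxolitinib, too few to count as a removal of doublets, and its calls were left out only as an alternative. UMIs were summed for each class and library. Levels carry exact Poisson intervals and ratios exact conditional binomial intervals, checked on simulated data. Log2 ratios add 5 CPM, and a gene entered a count with at least 10 CPM in either library. The floor of a count of 0 is 3 UMIs.

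The clock genes, gene lists, markers and alternatives were chosen with earlier results of these data known. The rule for naming took the 9 clock genes, the measured wider clock genes, of each further list the 4 most abundant genes and those past 1.5-fold, and the 5 genes most and least like Dbp in pattern, of which the text describes a part and counts the rest. Genes outside this rule (Tpm3-rs7, Gm10036, Thra, Egr1, cluster leaders) were chosen after their values were seen. Alternatives were TMM totals (edgeR 4.0.16), totals without mitochondrial genes, a stricter cell filter (500 genes, 1000 UMIs, 20% mitochondrial), other resolutions, cell by cell classes, thinned cells, other pseudocounts, filters and folds, and equal cluster weights. Promoter sequences are from RefSeq, GRCm38.p6.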

Additional observations from a re-analysis of the deposited data

Results flagged for a closer look

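In 6 cases a clock gene lay below vehicle in one cell class and above it in another within the same drug library, with both counting intervals leaving out a ratio of 1. Each value below is the log2 difference between the lower and the higher class, and with 1 library for each group none of these differences was tested. Hlf in panobinostat had the widest difference, -2.73, between T-like cells at 0.283 of vehicle and dendritic-like cells at 2.63. Nr1d1 in panobinostat differed by -1.496, between monocyte-like cells at 0.634 and dendritic-like cells at 2.42. Tef in panobinostat differed by -1.32, between distal convoluted tubule-like cells at 0.639 and dendritic-like cells at 1.88. In these dendritic-like cells the tubule RNA share was 20.02% in panobinostat and 6.16% in vehicle. Hlf, Nr1d1 and Tef stood there at 1.30, 1.23 and 1.16 times the level that this share would give in panobinostat, and at 1.51, 2.04 and 1.63 times in vehicle.

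Hlf in ruxolitinib differed by -1.21, between T-like cells at 0.688 and macrophage-like cells at 1.91, where it stood at 1.05 times the level of the tubule RNA share. Hlf in givinostat differed by -0.999, between monocyte-like cells at 0.440 and proximal tubule-like cells at 1.103. In monocyte-like cells Hlf stood at 0.718 times the level of the tubule RNA share in givinostat and at 1.51 times in vehicle. Dbp in ruxolitinib differed by -0.99, between macrophage-like cells at 0.655 and dendritic-like cells at 1.49. The tubule RNA share in dendritic-like cells of ruxolitinib was 10.5%. The part of tubule RNA in these 6 differences was not tested.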

How the results depend on the processing

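No paired analysis was possible because each group has 1 library. Dbp in proximal tubule-like cells kept its log2 ratio below vehicle in givinostat (-0.95 to -0.75) and panobinostat (-0.52 to -0.41) under all 12 settings, and in givinostat it left its counting interval with 20 CPM added (-0.75). In ruxolitinib it ran from -0.053 with TMM totals to 0.12. Of 24 further ratios, 18 kept their sign in all 12 settings, and 250 of 288 values stayed inside the counting interval of the reported value. Those that changed sign were Nr1d2, Per2 and Per3 in givinostat and Per1, Per3 and Arntl in ruxolitinib.

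Shares of all genes past the fold were computed for the reported settings alone, so the counts below have none beside them. The number of clock genes more than 1.5-fold below vehicle depended on the settings. In panobinostat it was 2 as reported, 0 with 20 CPM added, with the same weight for each cluster, without cluster 1, with a filter of 50 CPM and at a limit of 2-fold, and 4 at a limit under 1.5-fold. In givinostat it was 2 as reported, 1 in thinned cells, with 20 CPM added, with the same weight for each cluster and without cluster 1, and 0 at 2-fold. It was higher in settings where Per1 was past the limit as well. Among them were TMM totals, 1 CPM added (Per1 at -0.69) and a limit under 1.5-fold. In ruxolitinib it was 0 as reported. It was 1 with TMM totals, totals without mitochondrial genes, the stricter cell filter, cell by cell classes, 1 CPM added or a limit under 1.5-fold. More than 1.5-fold above vehicle there was none as reported, but without cluster 1 Nr1d1 in panobinostat (0.76) and Per2 in ruxolitinib (0.61), and with the same weight for each cluster Nr1d1 in panobinostat (0.59). Depth limits Arntl most, at 23 to 53 UMIs in proximal tubule-like cells.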
